A study of Mus musculus with 6 samples.

Results

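The 3 wild-type libraries of primary spermatocytes described here were chosen by genotype alone, from 6 samples in the series, and all 53700 listed genes were kept. Primary spermatocytes are the male germ cells that carry out meiotic prophase. They had been sorted by flow cytometry on Hoechst, a DNA stain, out of a suspension of testis cells from adult C57BL/6 mice aged 8 weeks. RNA was taken up in Trizol, and the TruSeq RNA kit was used to make the libraries; the labels give the input as 1 µg in one field and 2 µg in another. The study set these cells against cells lacking circSry, a circular RNA of the sex-determining gene Sry. The wild-type group carries no allele or treatment in its labels. The labels do not say whether each library came from its own animal or from pooled animals, so calls below measure only the spread between these 3 samples.

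In meiotic prophase homologous chromosomes pair, break and exchange DNA, and are held together by the synaptonemal complex, a protein ladder built on chromosome axes of cohesin and axis proteins. From the pachytene stage on, the unpaired X and Y are gathered in the sex body, where the histone variant H2AX is phosphorylated to γH2AX and transcription is silenced. Many mRNAs needed later, by spermatids and sperm, are made in spermatocytes and stored bound to proteins until translation.

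The libraries held 7400360, 8045148 and 8422943 estimated counts in WT replicates 1, 2 and 3, and values below keep that order. Levels are in TPM, a share of all transcripts that is corrected for gene length and so allows genes to be compared. In each library a count of 0 allows up to 0.405, 0.373 and 0.356 CPM (counts scaled to library size), counting error only. WT replicate 1 stood apart from the others in the comparison between libraries, and the main counts, the X ratio and the deviations by length and list are also given without it. These are bulk libraries, so fewer cells of a type and less RNA per cell cannot be told apart.

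All 7 marker genes of primary spermatocytes were well above the level of most genes in every library. Their median was 375 TPM, against 12.1 TPM for the 17603 genes with a mean of at least 1 TPM, and the lowest value in any library was 86.2 TPM, for Atr. The 2 most abundant encode proteins for energy and structure, and the other 5 act on meiotic chromosomes.

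Ldhc, the lactate dehydrogenase of germ cells, measured 5071, 4921 and 5812 TPM and ranked 3 of all genes. WT replicate 3 was the highest in TPM, while in CPM WT replicate 1 was the highest, at 4304, 2994 and 3669. Tuba3b, an α-tubulin of the testis, measured 4193, 2529 and 2557 TPM and ranked 9. WT replicate 1 was the highest for this gene and the other libraries were close to each other. Of the 31-base words that make up the annotated transcripts of Tuba3b, 43.1% also occur in other genes, Tuba3a first among them, so reads can be divided between them.

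Sycp3, a protein of the axial element of the synaptonemal complex, measured 367, 430.5 and 326 TPM. Sycp1, the transverse filament that joins the paired axes, measured 123, 190.3 and 106 TPM. WT replicate 2 was the highest for both in TPM, but in CPM Sycp3 stood at 253, 249 and 194. It shares 46.5% of its words with Chpt1, which overlaps it on the opposite strand, and the kit does not mark strand, so the Sycp3 value is uncertain. Stag3, the cohesin subunit particular to meiosis, had 542, 349.7 and 356 TPM, with WT replicate 1 above the rest. In CPM, which is not per length, Stag3 was nearly level, at 683, 680.3 and 664, so the order of its TPM is not in its counts. Atr, the kinase that phosphorylates H2AX in the sex body, had 86.2, 188 and 137 TPM. Mdc1, the adaptor that binds γH2AX and carries it along the chromosome, had 123, 368 and 204 TPM. For Atr and Mdc1 the order of the libraries was the same, with WT replicate 1 lowest and WT replicate 2 highest.

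In the GENCODE annotation on GRCm38, Sycp1 lies at chr3:102818499-102936100, Sycp3 at chr10:88459569-88473236, Tuba3b at chr6:145615757-145621479 and Ldhc at chr7:46861203-46878142. Stag3 lies on chromosome 5, Atr on 9 and Mdc1 on 17.

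**Figure D1:**
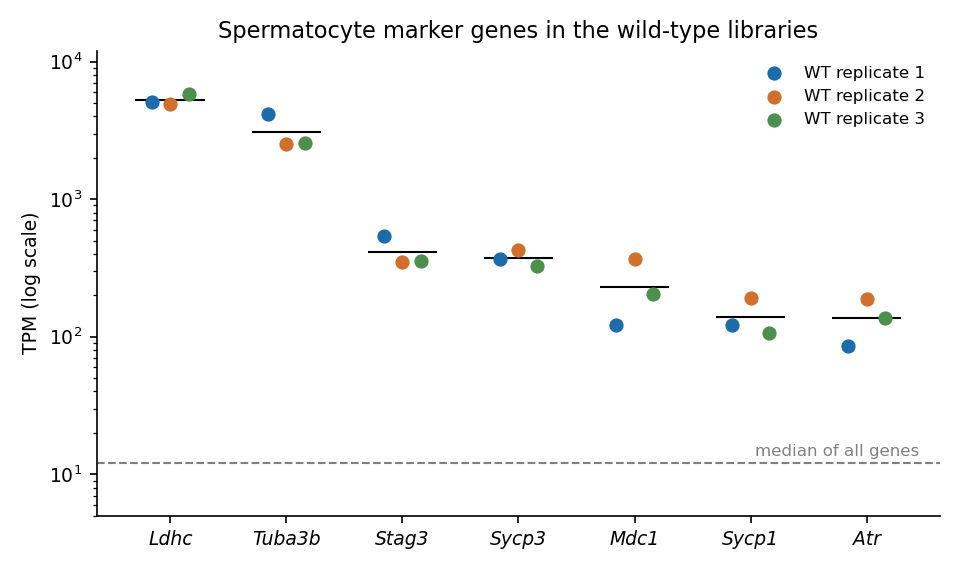
TPM on a log axis of the 7 marker genes in each wild-type library (coloured points), with the mean of the 3 libraries as a black line and the median of all genes with a mean of at least 1 TPM as a dashed line. Every point lies above the dashed line at 12.1 TPM, and Ldhc and Tuba3b lie above 2500 TPM in all 3 libraries.

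The promoters of 4 genes are shown because the results turn on them: Ldhc and Sycp3 as markers of the sorted cells, and the glycolytic pair Pgk1 and Pgk2, whose levels are compared further on. Each runs from 250 bases before to 50 bases after the start listed by RefSeq on GRCm38.p6, 5′ to 3′ on the gene's own strand; for Ldhc RefSeq lists more than 1 start and the upstream one was taken. Capitals mark 5 motifs searched on both strands: the GC box GGGCGG, the CRE half-site TGACG, the MYB motif AACTGNC, the TATA box TATAAA and the CCAAT box CCAAT. None of the 5 motifs is contained in another, and overlapping GC boxes were each counted.
Ldhc, chr7:46861013-46861312, plus strand: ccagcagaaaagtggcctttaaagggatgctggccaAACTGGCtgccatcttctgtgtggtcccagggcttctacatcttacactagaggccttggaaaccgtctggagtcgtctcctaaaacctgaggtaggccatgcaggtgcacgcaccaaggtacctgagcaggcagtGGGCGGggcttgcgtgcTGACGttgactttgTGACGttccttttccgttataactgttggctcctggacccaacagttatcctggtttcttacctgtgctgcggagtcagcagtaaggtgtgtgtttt
Sycp3, chr10:88459337-88459636, plus strand: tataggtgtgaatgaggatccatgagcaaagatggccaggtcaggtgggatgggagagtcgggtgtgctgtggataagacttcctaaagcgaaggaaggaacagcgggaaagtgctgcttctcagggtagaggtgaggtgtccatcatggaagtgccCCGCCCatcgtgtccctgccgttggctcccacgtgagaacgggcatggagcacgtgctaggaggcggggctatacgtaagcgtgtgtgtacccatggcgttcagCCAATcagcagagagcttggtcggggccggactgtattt
Pgk1, chrX:106186850-106187149, plus strand: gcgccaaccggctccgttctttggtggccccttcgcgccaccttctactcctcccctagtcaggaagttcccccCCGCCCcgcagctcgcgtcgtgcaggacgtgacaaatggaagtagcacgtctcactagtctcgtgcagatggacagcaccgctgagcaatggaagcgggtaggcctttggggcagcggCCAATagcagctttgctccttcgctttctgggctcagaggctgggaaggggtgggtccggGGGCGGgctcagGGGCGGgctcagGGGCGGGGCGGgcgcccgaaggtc
Pgk2, chr17:40208560-40208859, minus strand: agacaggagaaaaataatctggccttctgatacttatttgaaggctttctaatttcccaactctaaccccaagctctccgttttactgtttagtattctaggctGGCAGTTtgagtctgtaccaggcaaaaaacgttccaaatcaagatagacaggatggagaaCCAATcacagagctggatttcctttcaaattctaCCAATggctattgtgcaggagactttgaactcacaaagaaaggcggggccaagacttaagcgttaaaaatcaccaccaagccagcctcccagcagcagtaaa

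The Ldhc window held 1 GC box, 2 CRE half-sites and 1 MYB motif, and Sycp3 held 1 GC box and 1 CCAAT box. Pgk1 held 5 GC boxes and 1 CCAAT box, at a GC content of 66.7% with 24 CpG. Its germ cell counterpart Pgk2 held no GC box, 1 MYB motif and 2 CCAAT boxes, at a GC content of 43.0% with 4 CpG. Over all 16789 protein-coding genes with a listed promoter, 47.8% of windows held a GC box, 24.3% a CRE half-site, 11.9% a MYB motif, 13.1% a TATA box and 39.1% a CCAAT box.

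A GC box was in 9.18% of the windows of 2528 genes at 0 TPM, 63.6% of 5128 genes between 10 and 100 TPM, 58.9% of 1573 genes between 100 and 1000 TPM and 72.4% of 76 genes over 1000 TPM. CRE half-sites were in 9.41%, 34.5%, 34.3% and 35.5% of the same classes. TATA boxes were the most frequent at 0 TPM, with 34.5%, against 6.06% between 10 and 100 TPM and 13.2% over 1000 TPM. The MYB motif was in 10.8% to 14.7% of windows across these classes and the CCAAT box in 39.96% to 43.4%. The median GC content of the windows was 42.7% at 0 TPM and 60.7% between 10 and 100 TPM, and motif shares move with it. A match is a description of the letters in the window and not a site of binding.

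The transcriptome was broad. Of 53700 genes listed, 15175 had at least 1 TPM in every library. Leaving out a library can only keep or raise this count. It was 16293 without WT replicate 1, 15622 without WT replicate 2 and 15645 without WT replicate 3. Of the 15175, 12372 were protein-coding, 1968 long non-coding and 589 pseudogenes. At 10 TPM or more in every library there were 8262 genes, at 100 TPM 1699 and at 1000 TPM 85. A further 25155 listed genes had a count of 0 in all 3 libraries. Protein-coding genes held 92.4 ± 0.208% of all TPM, long non-coding genes 4.49 ± 0.351% and pseudogenes 2.49 ± 0.531% (SD, n = 3).

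The 100 genes with the highest mean held 20.04 ± 0.526% of all TPM (SD, n = 3). They comprised 93 protein-coding genes, among them 16 for ribosomal proteins, and 7 of the 100 lie on the mitochondrial genome. Chromosome 17 held 16 of them and the X chromosome 0. The order of the top genes differed between libraries: the 10 highest of each library had 4 genes in common, the 100 highest had 77 and the 1000 highest 776.

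After mt-Co2 and mt-Co1, subunits of cytochrome oxidase at 7115 and 6199 TPM on average, the highest gene was Ldhc at 5268 ± 477 TPM. Ybx2, the germ cell Y-box protein that binds stored mRNA, had the smallest SD of TPM among the 25 highest genes, at 3618, 3636 and 3658 TPM. It was less even in counts, with an SD of log2 CPM of 0.23, against 0.017 for Eef1a1, also among the 25. Ybx1, a relative of Ybx2 in many cell types, measured 1797, 3173 and 3305 TPM, with WT replicate 1 the lowest. Meig1, needed to build the sperm flagellum, had 2975, 2608 and 3303 TPM. Rsph1, of the radial spoke of flagella, had 3347, 2051 and 2219 TPM, and for it WT replicate 1 was the highest.

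Others of the 25 highest serve general functions. Ubb, a ubiquitin gene, averaged 3473 TPM, Tcp1, a subunit of the cytosolic chaperonin, 2402 and Eef1a1, the translation elongation factor, 2334. The ribosomal protein genes Rpl41, Rpl36 and Rps27 averaged 2870.2, 2486 and 2353 TPM. Fabp9, a fatty acid binding protein of the sperm perforatorium, averaged 2671 TPM, Tuba3a 2835 and Gstm5, a glutathione transferase, 2281.

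Some of the highest values cannot be assigned to a gene with certainty. mt-Co2 shares 100% of its words with other listed genes, 99.5% with Gm28661, and mt-Co1 shares 63.9%. Dynlt2a1, a Tctex-type dynein light chain gene at 4969 TPM, shares 99.6% of its words with other genes, 94.3% with Dynlt2a2. Gm10925, Gm28437 and Gm29216, pseudogenes on chromosome 1 at 4605, 2842 and 2410.3 TPM, share 100%, 100% and 97.2% of their words with mt-Atp6, mt-Co3 and mt-Co1. Rpl36 shares 94.1% of its words with other genes, Eef1a1 51.5%, Tuba3a 51.5%, Ubb 50.3% and Fabp9 48.6%. mt-Nd4l, of complex I, at 588, 6501 and 3697 TPM, shares 98.9% with Gm10222.

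The 5 highest genes annotated as long non-coding were Rbakdn, 1700008K24Rik, Gm11837, 1700018B24Rik and Gm2762. Rbakdn stood at 3558, 1904 and 2539 TPM, rank 17 of all genes, with WT replicate 1 the highest. 1700008K24Rik stood at 1629, 1102 and 1253 TPM, rank 81, and the other 3 between 554 and 657 TPM on average. Gm11837 lies antisense and shares 37.7% of its words with Necab1, so its level is uncertain.

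The levels of 20 gene lists, each standing for a stage, pathway or cell type, differed widely. Levels are the median TPM over all members found; among all genes at 1 TPM or more the median was 12.1.

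The pachytene and diplotene list, genes switched on in later prophase, stood at a median of 299 TPM. All 36 members were at 1 TPM or more in each library and 27 were at 100 TPM or more. Ldhc, Ybx2 and Tuba3b led it. Further down, Hspa2, the chaperone needed to leave prophase, had 906, 1440.5 and 1424 TPM and Piwil1, an Argonaute that binds pachytene piRNAs, 352, 644 and 468 TPM, each with WT replicate 1 the lowest. H1f6, the testis linker histone, was the lowest member at 3.94, 2.03 and 2.97 TPM, from 15, 7 and 11 counts.

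Genes of chromosome structure were also above the general level. The 18 genes of the synaptonemal complex and axis had a median of 74.9 TPM and 17 passed 1 TPM in every library. Syce1 and Syce3, of its central element, had 650.2, 347 and 413 and 289.8, 274 and 239 TPM. Sycp2l, known from oocytes, was lowest at 0.42, 0.08 and 0.07 TPM. Among meiotic cohesins Stag3 and Smc1b were high, the latter at 87.5, 112 and 101 TPM, while Rad21l stood at 2.87, 8.06 and 3.65 TPM.

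Genes that act earlier, on DNA breaks and their repair, had a median of 22.7 TPM over 38 genes, 37 of them at 1 TPM or more in each library. Rpa1, which coats single-stranded DNA, had 203, 256 and 279.8 TPM, Psmc3ip, a partner of Dmc1, 226, 242 and 242 TPM, and Cntd1, needed for crossovers, 113, 180.5 and 145 TPM. Cntd1 shares 66.6% of its words with other genes, chiefly Becn1. Spo11, which makes the breaks, had 76.02, 94.9 and 88.8 TPM. Dmc1, the strand exchange protein of meiosis, had 16.04, 28.8 and 18.8 TPM, and Prdm9, which places the breaks in mice, 5.87, 17.6 and 12.4 TPM. Mei4, a partner in break formation, was the lowest at 0.22, 0.96 and 0.9 TPM.

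The 18 genes of meiotic entry, from preleptotene to zygotene, had a median of 20.8 TPM and 17 passed 1 TPM in each library. Tex101, a surface protein of germ cells, led at 578, 801 and 523 TPM, followed by Meioc, which stabilises the meiotic program, at 61.2, 183 and 136 TPM and Spo11. Stra8 and Meiosin, the transcription factors that start meiosis, had 65.7, 47.8 and 37.5 and 17.7, 44.7 and 27.4 TPM. WT replicate 1 was the highest for Stra8 and the lowest for Meiosin.

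Genes of the meiotic divisions were all detected, and whether their RNA came from spermatocytes or from dividing cells sorted with them was not tested. All 28 passed 10 TPM in each library, with a median of 48.4 TPM. Cdc20, which activates the anaphase-promoting complex, had 196, 249.6 and 237 TPM, Pttg1, the securin, 249.6, 202 and 218 TPM and Ccna1, the cyclin of male meiosis, 216, 181 and 249 TPM. WT replicate 1 was the lowest for Cdc20 and the highest for Pttg1, and it was the lowest for 18 of the 28 genes, near the 54.3% of all genes for which it was.

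Lists named for spermatids were as high as many lists of prophase. The round spermatid list had a median of 81.4 TPM over 29 genes and the elongating spermatid list 237 TPM over 28, and every member passed 1 TPM in each library. Dkkl1, an acrosomal protein, had 3227, 1507 and 1938 TPM, Actl7b, an actin-like protein, 597, 331 and 513 TPM and Zpbp2, which binds the egg coat, 348, 347 and 439 TPM. Actl7b shares 90.7% of its words with Gm26657 on the opposite strand. The defining markers Acrv1, of the acrosome, and Tssk1, a kinase of spermatids, had 125, 113 and 131 and 57.4, 42.1 and 54.04 TPM.

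Of the elongating list, Meig1 led, followed by Prm1, a protamine that packs sperm DNA, at 2388, 2125 and 1831 TPM and Tnp2, a transition protein that precedes protamines, at 2453, 1720.1 and 1672 TPM. Tnp1, the other transition protein, had 1626, 1495 and 1394 TPM. For Prm1, Tnp1 and Tnp2 WT replicate 1 was the highest and WT replicate 3 the lowest. The summed level of the elongating list was 20705, 15831 and 17385 TPM and that of the round list 6741, 4072 and 5348 TPM. In both WT replicate 1 was the highest and WT replicate 2 the lowest. Whether these mRNAs were in the sorted spermatocytes or in spermatids sorted with them was not tested.

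**Figure D2:**
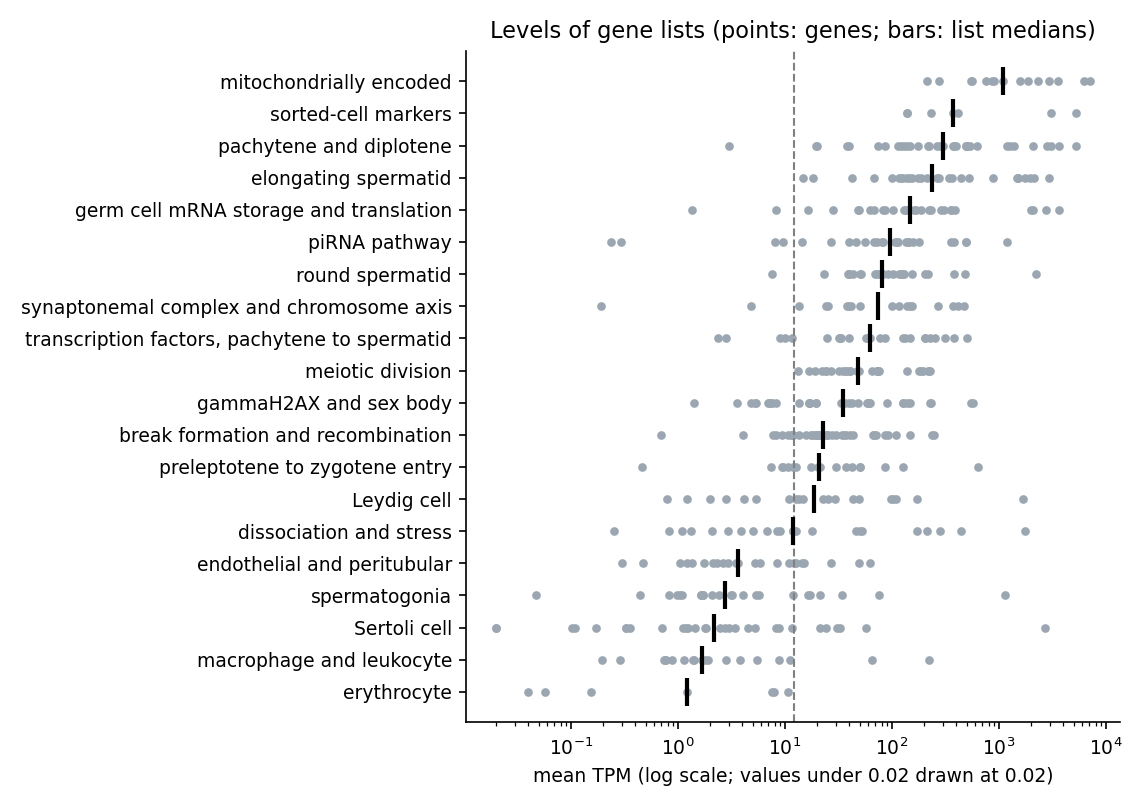
Mean TPM over the 3 wild-type libraries on a log axis for each gene (grey point) of the 20 lists, with the median of each list as a black bar and the median of all genes with a mean of at least 1 TPM, 12.1, as a dashed line. Lists of late prophase and spermatids lie to the right of the line, from 81.4 to 299 TPM, and the lists of spermatogonia, Sertoli cells, macrophages, vessels, erythrocytes and stress to its left.

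Spermatogonia, the mitotic cells before meiosis, were low by most of their markers. The 24 genes had a median of 2.78 TPM, 18 passed 1 TPM in each library and 5 passed 10 TPM. The exception was Dmrtb1, a transcription factor of the step from mitosis to meiosis, at 1319.7, 871 and 1214 TPM. Uchl1 and Id4, both known from spermatogonia, followed at 91.7, 73.8 and 60.5 and 26.9, 42.7 and 31.8 TPM. Gfra1, the receptor of undifferentiated spermatogonia, had 2.33, 2.5 and 4.59 TPM and Kit, of differentiating ones, 8.73, 27.3 and 13.8 TPM.

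Markers of somatic cells of the testis were mostly low, apart from those of Leydig cells. Sertoli cells, which nurse the germ cells, had a list median of 2.16 TPM over 30 genes, with 16 at 1 TPM or more in each library. Fshr and Shbg had no count in any library, Sox9 had 0.05, 0.1 and 0.18 TPM and Amh 0.99, 1.36 and 1.25 TPM. Fabp9 led the list, although it is the protein of the sperm perforatorium named above. Next came Clu, a secreted chaperone, at 58.05, 65.3 and 48.9 TPM and Tjp1, of tight junctions, at 22.96, 42.1 and 33.4 TPM. The summed level of 3390, 2580 and 2724 TPM is mostly Fabp9, so it is not a measure of Sertoli cells.

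Leydig cells, which make testosterone, had the highest median of the somatic lists at 18.7 TPM. This was above the 12.1 TPM of all genes with a mean of at least 1 TPM. In each library 16 of 20 genes were at 1 TPM or more and 13 at 10 TPM or more. The summed level of the list was 2742, 2432 and 2072 TPM. Insl3, their peptide hormone, measured 2052, 1649.8 and 1383 TPM. It shares 63.1% of its words with Jak3, which overlaps it on the same strand and averaged 6.46 TPM. Ptgds, a prostaglandin synthase, had 189, 188 and 139 TPM. Cyp17a1, an enzyme of androgen synthesis, had 91.3, 128 and 109 TPM and Cyp11a1, which starts steroid synthesis, 41.7, 45.4 and 41.6 TPM. The receptor Lhcgr was lower, at 0.59, 5.93 and 1.89 TPM. No marker of this list was at 0, and the part of Leydig RNA in other values was not tested.

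The 19 macrophage and leukocyte genes had a median of 1.68 TPM, with 9 at 1 TPM or more in each library and a summed level of 496, 263 and 234 TPM. Aif1, a calcium-binding protein named for macrophages, led at 349, 154 and 159.8 TPM, followed by Apoe, a lipid carrier, at 98.9, 59.2 and 36.4 TPM and H2-Ab1, of MHC class II, at 13.7, 11.2 and 8.72 TPM. Most of the summed level is Aif1 and Apoe, so the sum is not a measure of macrophages. Cd74, which escorts MHC class II, had 8.62, 9.54 and 8.47 TPM, Adgre1, the F4/80 antigen, 0.65, 1.68 and 1.08 TPM and Ptprc, on all leukocytes, 0.08, 0.35 and 0.16 TPM. The endothelial and peritubular list had a median of 3.64 TPM, with 17 of 23 genes at 1 TPM or more in each library and a sum of 204, 304 and 231 TPM. Sparc, Igfbp7 and Dcn, of the extracellular matrix, led it at 62.3, 49.3 and 26.8 TPM. Pecam1, of endothelium, had 1.06, 3.78 and 2.07 TPM and Myh11, of smooth muscle, 1.88, 4.03 and 2.01 TPM.

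Erythrocyte genes had a median of 1.22 TPM, with 3 of 7 at 1 TPM or more in each library and a sum of 36.8, 17.2 and 29.2 TPM. Hbb-bs, a β-globin, had 13.04, 8.3 and 10.9 TPM, and the α-globins Hba-a1 and Hba-a2, which share most of their words, had 14.5, 4.88 and 4.55 and 7.3, 3.47 and 11.9 TPM. The stress list, genes that respond when tissue is dissociated, had a median of 11.9 TPM over 25 genes, with 21 at 1 TPM or more in each library. The chaperones Hsp90aa1, Hspa5 and Hsp90ab1 led it at 1758, 439 and 281 TPM. Hsp90aa1 shares 51.5% of its words with other genes, so its level is uncertain. The early response gene Fos had 4.45, 22.3 and 8.96 TPM.

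Genes of γH2AX and the sex body, the subject named in the study's title, spanned a wide range. The 34 genes had a median of 35.1 TPM, 33 passed 1 TPM in each library and 6 passed 100 TPM. H2ax itself had 107, 161 and 116 TPM and ranked 1642. Trim28, a corepressor, had 706, 498 and 516 TPM. Topbp1, which activates ATR, had 35.7, 88.05 and 64.5 TPM. Atm, a related kinase that acts at DNA breaks, stood lower at 1.96, 14.1 and 5.17 TPM, and Chek2, one of its targets, at 0.87, 1.81 and 1.57 TPM.

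In this list WT replicate 1 was the lowest library for 28 of 34 genes and WT replicate 2 the highest for 26. Over all 17603 genes WT replicate 1 was the lowest for 54.3% and WT replicate 2 the highest for 48.3%. The list's median gene had a length of 3010 bases, against 1616 for all genes. Long genes as a whole were ordered in the same way, as the comparison by length shows. The list's median log2 deviation from each gene's mean, less that of all genes, was -0.26, 0.34 and -0.03. Against genes of the same length class it was -0.25, 0.21 and -0.05. How far length accounts for the order in this list was not tested. Sry, on chromosome Y, had no count in any library; a gene-level count does not measure a circular RNA.

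The piRNA pathway, which silences transposons and cuts mRNAs in spermatocytes, had a median of 95.6 TPM over 26 genes, with 24 at 1 TPM or more in each library. Mael, a germ granule protein, had 1058, 1160.2 and 1323 TPM, Tdrd6, a Tudor protein of the chromatoid body, 448, 463 and 556 TPM and Piwil1 the level given above. Piwil4 and Dnmt3c, which act in fetal germ cells, were low, at 0.28, 0.31 and 0.29 and 0.61, 0.1 and 0 TPM.

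Transcription factors of the pachytene to spermatid program had a median of 62.9 TPM, and all 25 passed 1 TPM in each library. Tbpl1, a relative of the TATA-binding protein, had 556, 407 and 557 TPM, Tcfl5 325, 384 and 423 TPM and Kctd19, a partner of zinc finger proteins in meiosis, 219, 352 and 364 TPM. Crem, which turns on spermatid genes, had 226, 175 and 212 TPM, and Mybl1, the master regulator of pachytene genes and piRNA precursors, 23.4, 55.8 and 39.6 TPM. WT replicate 1 was the lowest for Tcfl5, Kctd19 and Mybl1 and the highest for Crem.

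The list of mRNA storage and translation in germ cells had a median of 149 TPM, with 27 of 28 genes at 1 TPM or more in each library. Its leaders were the Y-box proteins Ybx2, Ybx1 and Ybx3, the last at 1659, 2160.0 and 2424 TPM. Ddx4, the germ cell helicase vasa, had 306, 406 and 363 TPM, Boll, an RNA-binding protein of meiosis, 105, 296 and 259.7 TPM and Dazl, its relative, 98.9, 194 and 115 TPM.

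The X chromosome was at a lower level than every autosome. Among protein-coding genes with a mean of at least 1 TPM, the median was 4.27 TPM over 521 X-linked genes and 19.1 TPM over 12897 autosomal genes. Medians of single autosomes ran from 12.6 to 23.4 TPM. Within each library the X median was below the autosome median by a log2 ratio of -2.08, -2.23 and -2.15, a mean of -2.16 ± 0.08 (SD, n = 3), or 4.46-fold lower. Without WT replicate 1 the mean log2 ratio was -2.20. The difference between X and autosomes was many times the spread between libraries; no test across genes was made, since genes are not replicates.

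The X differed from the autosomes in the share of highly expressed genes, and lay within their range in the share detected. Of 929 X-linked protein-coding genes 56.1% had a mean of at least 1 TPM, within the 52.6% to 70.8% of the autosomes. At 100 TPM or more there were 4 X-linked genes, 0.431%, against 6.43% to 13.8% on single autosomes and 9.64% over all autosomes. The low level ran along the whole chromosome: in windows of 20 Mb the median lay between 3.51 and 6.57 TPM.

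The 5 highest X-linked genes were Tsga8, Akap4, Ndufa1, Rpl10 and Gm14868. Tsga8, a gene of haploid germ cells, had 171, 107 and 182 TPM, and Akap4, a protein of the sperm fibrous sheath, had 117, 137 and 163 TPM. Ndufa1, of respiratory complex I, had 113, 140.3 and 109.7 TPM, and Rpl10, of the large ribosomal subunit, 89.2, 117 and 94.1 TPM. Gm14868 is a short pseudogene with fewer than 5 counts per library, all of whose words occur in Dnajc5b, so its level is uncertain.

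The Y chromosome was lower still, with a median of 2.28 TPM over 75 protein-coding genes. Its 5 highest genes were Gm47283 at 41.2, 27.3 and 27.5 TPM, Eif2s3y, a translation initiation factor needed for spermatogenesis, at 27.2, 31.4 and 32.4 TPM, Uba1y, a ubiquitin-activating enzyme, at 8.89, 23.8 and 22.02 TPM, Gm29044 and Sly. Sly, a multicopy gene that represses sex-linked genes in spermatids, had 27.2, 5.47 and 15.9 TPM, and shares 72.8% of its words with other genes. Gm29044 had no more than 7 counts in any library. Xist, the RNA that silences an X in female cells, had 0.48, 0.93 and 0.83 TPM.

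**Figure D3:**
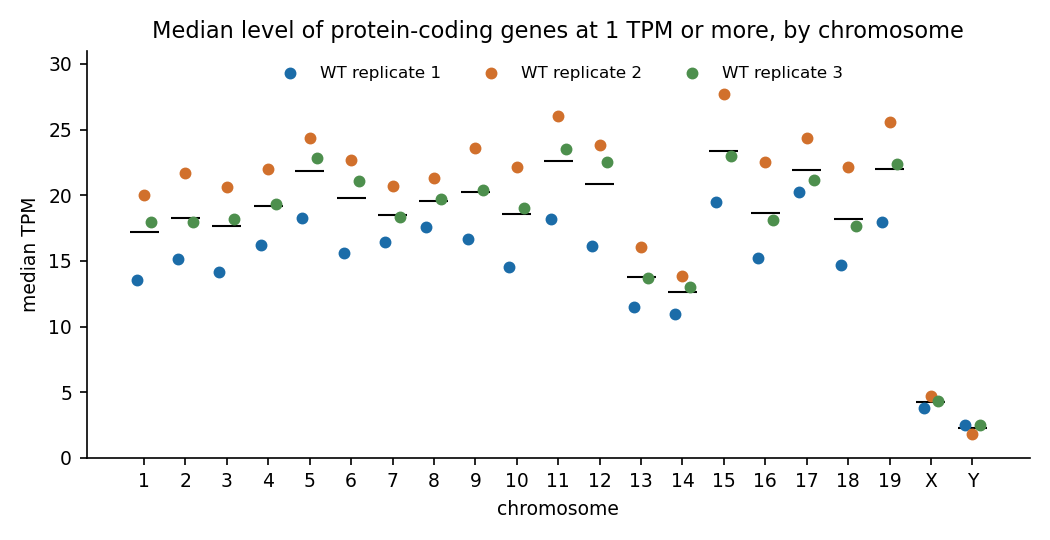
Median TPM, per chromosome and library, of protein-coding genes with a mean of at least 1 TPM (coloured points; black lines are the mean of the 3 libraries). Autosomes lie between 12.6 and 23.4 TPM on average and X and Y at 4.27 and 2.28 TPM; on each autosome WT replicate 1 is the lowest library.

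Germ cells have their own copies or relatives of many widely expressed genes, and 33 such pairs were compared within a library, per length. The pairs were chosen with earlier results of these data known, so the counts below describe these pairs only. The germ cell form was higher in all 3 libraries in 27 pairs and the widely expressed form in 6. The 14 pairs with an X-linked widely expressed form all had the germ cell form higher, with a median log2 ratio of 4.0, from 0.80 to 6.73. In the 19 pairs with an autosomal one it was higher in 13, with a median of 1.90, from -4.91 to 8.77. The X-linked forms had a median of 7.68 TPM and their germ cell forms 155 TPM. The autosomal widely expressed forms had a median of 82.8 TPM and their germ cell forms 245 TPM. No pair had a mixed direction, so leaving out a library cannot change these counts, and no p is given, since an exact sign-flip test over 3 libraries cannot reach a threshold of 0.05.

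In glycolysis Pgk2, an intronless copy of phosphoglycerate kinase on chromosome 17, had 297, 222 and 317 TPM and X-linked Pgk1 7.81, 10.02 and 7.99 TPM. The log2 ratio was 4.99 ± 0.47 (SD, n = 3). Pgk1 shares 54.7% of its words with a related copy, Pgk1-rs7, and of the other X-linked forms Slc25a5 shares 49.4% with other genes, Rps4x 45.6%, Timm8a1 41.8% and Rpl10 37.0%. Reads assigned to such copies would lower the level of the X-linked form, and these values are uncertain. Pdha2, of pyruvate dehydrogenase, had 106, 173 and 163 TPM against 2.19, 2.23 and 1.29 TPM for X-linked Pdha1. Ldhc was above Ldha, the form of most tissues, by a log2 ratio of 2.01 ± 0.32, and Gapdhs, the sperm form of glyceraldehyde phosphate dehydrogenase, above Gapdh by 2.00 ± 0.67. Aldoart1, a retrogene of aldolase, was below Aldoa, at 28.4 against 218 TPM.

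Mitochondrial and ribosomal pairs all had the germ cell form higher. Cyct, the testis cytochrome c, had 239, 287 and 269 TPM against 18.1, 24.9 and 14.5 TPM for Cycs, and Cox6b2, of cytochrome oxidase, had 1536, 1569.6 and 1566 TPM against 66.6, 67.9 and 44.1 TPM for Cox6b1. Slc25a31, an ADP/ATP carrier, and Timm8a2, of protein import, were above X-linked Slc25a5 and Timm8a1 by log2 ratios of 3.46 and 4.77. Rpl10l, the autosomal copy of Rpl10, had 564, 530.4 and 557 TPM, against 100.03 TPM on average for Rpl10, and Rpl39l and Rps4l were above Rpl39 and Rps4x by 3.27 and 3.67.

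Among chromosome proteins, Cetn1, a centrin of male germ cells, showed the largest ratio to an X-linked form, at 1155, 496 and 644 TPM against 6.74, 8 and 5.51 TPM for Cetn2, a log2 ratio of 6.73 ± 0.74 (SD, n = 3). Stag3 was above X-linked Stag2 by 6.21 ± 0.72 and Smc1b above X-linked Smc1a by 4.34 ± 0.13. Rad21l was below Rad21 by a log2 ratio of -1.85. H1f6 was below H1f0 by -2.89, with only 15, 7 and 11 counts behind H1f6, so this ratio is uncertain. The largest ratio of all was Tuba3b over Tuba1a, at 8.77 ± 0.63, both of which share words with other tubulin genes.

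In RNA processing Rbmxl2, a splicing regulator of meiosis, was above X-linked Rbmx by 5.07, Utp14b, of ribosome assembly, above X-linked Utp14a by 2.11 and Papolb, a poly(A) polymerase, above Papola by 0.73 ± 0.36. Cstf2t, of mRNA 3′ end formation, was above Cstf2 by 0.80 ± 0.20, the smallest ratio to an X-linked form. Pabpc2, a poly(A)-binding protein, was below Pabpc1 by -2.39. Eif4g3, a translation initiation factor needed for meiosis, was above Eif4g1 by 1.5.

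Of the proteins that fold and degrade others, Hspa2 was above Hspa8 by 2.46, Clgn, a testis chaperone, above Canx by 2.20, and Psma8, of the spermatoproteasome, above Psma7 by 2.83. Hspa8 shares 44.8% of its words with other genes, so its level is uncertain. Ube2b, a ubiquitin-conjugating enzyme, was above X-linked Ube2a by 3.07. Calr3 had 22.1, 16.5 and 19.7 TPM against 584, 629 and 534 TPM for Calr, the lowest ratio of all at -4.91 ± 0.30. Ccna1 was above Ccna2 by 4.09. Of the general transcription factors, Tbpl1 was above Tbp by 1.57 and X-linked Taf7l above autosomal Taf7 by 1.90, while Taf4b was below Taf4 by -0.75 ± 0.08, the smallest difference among pairs led by the widely expressed form.

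**Figure D4:**
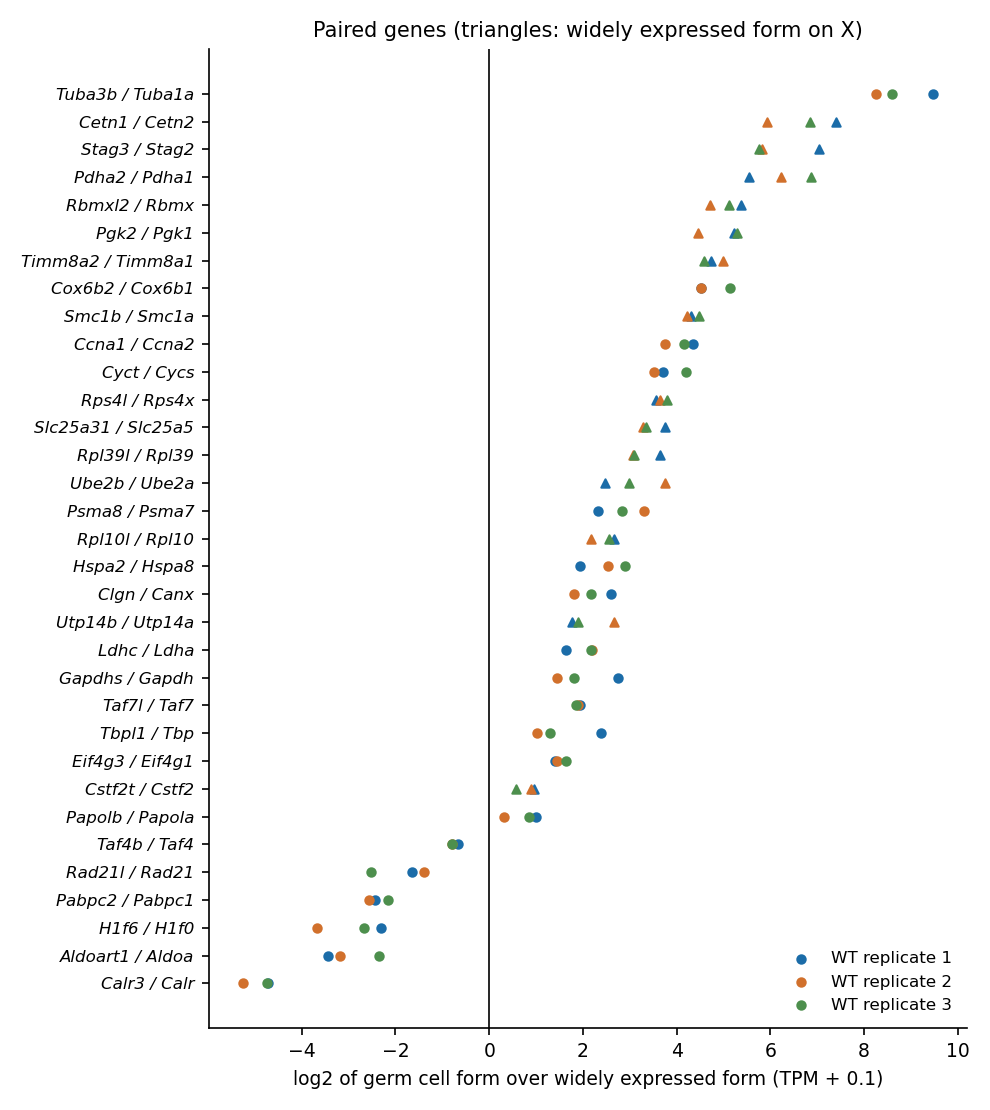
Log2 ratio of TPM + 0.1 of the germ cell form over the widely expressed form for 33 gene pairs, 1 point per wild-type library, with triangles where the widely expressed form is X-linked. All 14 rows of triangles lie to the right of 0, and 6 of the 19 rows of circles lie to its left.

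Most genes varied between the libraries by more than counting error, a low bar for separate samples, which abundant genes pass at small differences. A test of each gene against counting error alone, edgeR's likelihood ratio test with no dispersion, called 9565 of 14718 genes, 65% of those tested, at a Benjamini-Hochberg adjusted p under 0.05. With no filter on low counts it called 10785 of 28388, or 38%. The common coefficient of variation between libraries, with counting error taken off, was 0.251. Without WT replicate 1 the share called was 35.2% and the coefficient 0.162. Without WT replicate 2 they were 47.1% and 0.241, and without WT replicate 3 57.6% and 0.319. The share called followed the level of the gene, from 41.9% of genes between 1 and 10 TPM to 74.8% between 10 and 100, 94.3% between 100 and 1000 and 98.2% at 1000 TPM or more. The median SD of log2 CPM did not follow that order: it was 0.34, 0.28, 0.26 and 0.40 in these classes.

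All 7 markers were called, and 33 of 35 pachytene and diplotene genes, 27 of 29 round spermatid genes and 26 of 28 elongating spermatid genes. Of the 34 γH2AX and sex body genes 27 were called. Among 28 genes of meiotic division 19 were called and among 17 spermatogonial genes 10, near the 65% of all genes. The shares of the pachytene and elongating spermatid lists, with medians over 100 TPM, are to be read against the 94.3% of their level class. Those of round spermatid, meiotic division and γH2AX genes, with medians of 81.4, 48.4 and 35.1 TPM, are to be read against 74.8%. The spermatogonial median of 2.78 TPM covers all 24 members and not only the 17 tested. Those tested include genes of higher classes, so no single class applies to their share. Against 74.8%, the share called was 67.9% for meiotic division, 79.4% for γH2AX and sex body and 93.1% for round spermatid genes. The members of a list span several level classes, so these differences are not a result about the lists.

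WT replicates 2 and 3 were the most alike. Over 17603 genes the Pearson correlation of log2(TPM + 1) across genes was 0.958 between them, 0.948 between replicates 1 and 3 and 0.930 between replicates 1 and 2, and the Spearman correlations were 0.953, 0.939 and 0.921. These describe pairs of libraries over the same genes, which are not independent. In the same order, 92.4%, 87.6% and 78.9% of genes lay within 2-fold.

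The difference between the libraries ran along gene length. Genes were split into 5 classes by the effective length implied by the deposited counts and FPKM. In the shortest class the median deviation from a gene's mean over the libraries was 0.09, -0.08 and 0.00 on the log2 scale, and in the longest -0.41, 0.32 and 0.08. WT replicate 1 thus went from highest in the shortest class to lowest in the longest, and WT replicate 2 the reverse. Without WT replicate 1, the median log2 difference of WT replicate 2 over WT replicate 3 went from -0.04 in the shortest class to 0.25 in the longest. Taking a length trend out of each library lowered the coefficient of variation from 0.251 to 0.212.

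Gene lists deviated from all genes in both directions, and some of these deviations changed sign among genes of the same length class. Of 20 lists, 13 were above all genes in WT replicate 2. For γH2AX and the sex body the median log2 deviation, less that of all genes, was -0.26, 0.34 and -0.03, and against genes of the same length class it was -0.25, 0.21 and -0.05. For round spermatid genes, whose median length was 1034 bases, it was 0.35, -0.44 and 0.07, and length-matched 0.21, -0.31 and 0.09. For elongating spermatid genes it was 0.34, -0.27 and -0.03, and length-matched 0.15, -0.16 and -0.02. In WT replicate 1 the deviation turned from 0.11 to -0.03 for the sorted-cell markers, from 0.12 to -0.01 for pachytene and diplotene genes and from -0.04 to 0.11 for spermatogonial genes when length-matched.

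Of all 17603 genes, 24.5% were lowest in WT replicate 2, 48.3% were highest there and 26.2% were highest in WT replicate 3. Of the round spermatid genes 24 of 29 were lowest in WT replicate 2, and of the genes of break formation and recombination 27 of 37 were highest there. Pachytene and diplotene genes were lowest in WT replicate 2 for 18 of 36 and highest in WT replicate 3 for 18. Without WT replicate 1, WT replicate 2 differed from WT replicate 3, less all genes, by 0.35 for γH2AX and the sex body, -0.44 for round and -0.36 for elongating spermatid genes. As a list, genes of meiotic division deviated by -0.05, -0.04 and 0.09.

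**Figure D5:**
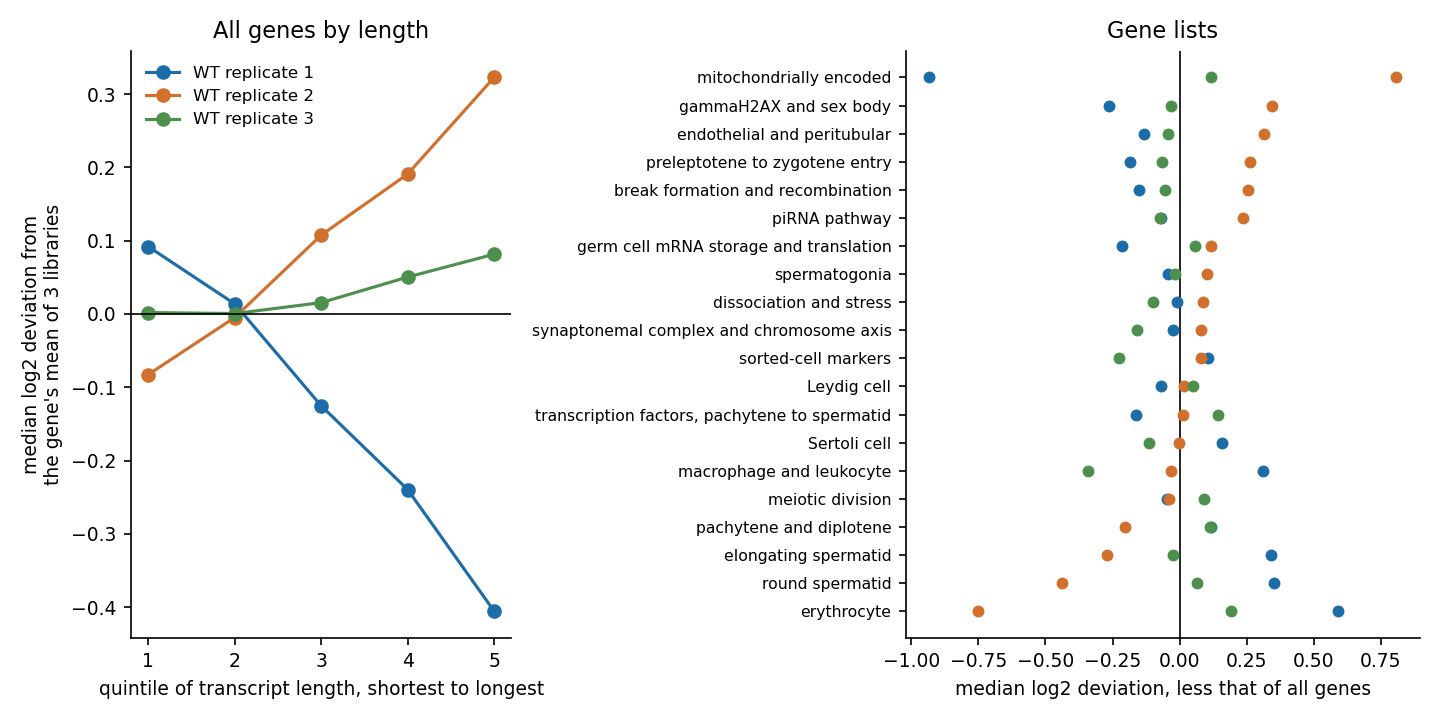
Left, median log2 deviation of TPM + 1 from each gene's mean over the libraries, by class of transcript length, for each wild-type library; right, the same for 20 gene lists, less the value of all genes. WT replicate 1 falls from 0.09 to -0.41 across the length classes while WT replicate 2 goes from -0.08 to 0.32, and mitochondrially encoded genes show the widest gap among the lists.

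Mitochondrially encoded genes differed most as a list. They held 1.57%, 4.87% and 2.80% of all TPM, a share that leaves out the chromosome 1 pseudogenes Gm10925, Gm28437 and Gm29216 named above. The list deviated by -0.93, 0.81 and 0.12. Without WT replicate 1, it was higher in WT replicate 2 than in WT replicate 3 by 0.69 on the log2 scale, less all genes. All 15 genes were at 1 TPM or more in each library, with a median of 1087 TPM. Of the 13 protein-coding ones, 11 were lowest in WT replicate 1 and 12 highest in WT replicate 2. mt-Co1 had 2500.1, 10185 and 5911 TPM, mt-Cytb, of complex III, 827, 3854 and 2226 TPM and mt-Nd5, of complex I, 163, 955 and 536 TPM. The 2 that were not lowest in WT replicate 1 were mt-Atp6, of the ATP synthase, at 1066, 1022 and 526 TPM, and mt-Nd3, of complex I, at 942, 1479 and 839.8 TPM. They share 99.5% and 98.1% of their words with the pseudogenes Gm10925 and Gm28438. Gm10925 itself had 1884, 7273 and 4658 TPM, lowest in WT replicate 1, so the order of mt-Atp6 is uncertain. The counts behind short genes are small: mt-Atp8 had 3, 28 and 16 counts for its 97.1, 1264 and 929 TPM.

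The 10 protein-coding genes with the widest spread of log2 CPM, among those at 10 TPM or more, were Gm49661, Gm50478, Gm21119, Gm28036, Gm15319, mt-Nd4l, 4930467E23Rik, Dynlt2a2, H2bc1 and Ccdc142. All 10 were lowest in WT replicate 1. Gm49661 had 0.8, 358 and 484 TPM, and every word of it occurs in Rnaseh2a, which makes a subunit of ribonuclease H2. Gm50478 likewise lies wholly within another gene's words, and Gm21119, Gm15319 and 4930467E23Rik share 92.3% to 96.3% of theirs, Gm28036 97.2% and Ccdc142 68.2%. Dynlt2a2, which shares 30.2% of its words, had 23.5, 117 and 172 TPM, while Dynlt2a1 had 5213, 4437 and 5259 TPM. H2bc1, a testis histone H2B, had no count, then 9.82 and 17 estimated counts.

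The 5 with the narrowest spread were Tbc1d2, Sap30, Phf1, Slc35a3 and Med19. Phf1, a Polycomb partner, had 304.7, 304.5 and 301.1 CPM, and Sap30, of a histone deacetylase complex, 43.2, 43.1 and 43.0 CPM. Phf1 was nevertheless called in the test against counting error, which scales libraries by TMM factors of 0.958, 1.05 and 0.994. Tbc1d2, a regulator of Rab proteins, Slc35a3, a nucleotide sugar transporter, and Med19, of the Mediator, were not called.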

How the data were processed

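Libraries of sorted primary spermatocytes were grouped by the genotype in the labels, and the wild-type ones alone were used. Per the file headers, the authors deposited RSEM estimated (expected) counts for every gene in each library, beside TPM and FPKM. Tools named in the submitters' processing notes are RSEM 1.3.2, STAR 2.7.0f and edgeR 3.28.1, and mm9 and GRCm39 are named as builds without a role. Which annotation the authors used is not stated there. The authors' estimated counts were not normalized and were rounded to whole numbers here; the deposited TPM were used as given, and the deposited FPKM served as a check and to derive effective lengths. Positions, gene classes and transcripts came from GENCODE M21 on GRCm38 by gene identifier; 52147 of 53700 genes matched, and the 1553 unmatched genes held 0.25% of wild-type counts. The authors may have counted on a different build. The kit does not mark strand, so overlapping and antisense genes cannot be told apart.

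Spread beyond counting error was tested with edgeR 4.0.16 in R 4.3.3 on genes kept by filterByExpr, with TMM factors, a likelihood ratio test of library terms at a dispersion of 0 and Benjamini-Hochberg adjustment at a threshold of 0.05. The steps were tested on simulated data. Log2 deviations used TPM + 1 and pair ratios TPM + 0.1. CPM, counts scaled to library size, was computed here. Words of 31 bases were compared between all annotated transcripts. Depth was 7400360 to 8422943 counts; floors are 3 counts and cover counting error only.

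Named genes were the 7 markers, the 25 highest, the 3 highest of each list with defining markers at 0, both genes of each pair, Sry and H2ax, the 10 most and 5 least variable, the 5 highest X-linked and Y-linked and the 5 highest long non-coding genes. Further genes were picked with their values in view. Some genes that the rule names are not reported here. The members, gene lists and pairs were chosen with earlier results of these data known. Alternatives were RLE factors, no filter, other thresholds and pseudocounts, TPM recomputed from FPKM, CPM, and each library left out in turn; the comparison with genes of the same length class was chosen after seeing the data.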

Additional observations from a re-analysis of the deposited data

How the results depend on the processing

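No paired analysis was possible because a single group of libraries was used. Of 48 alternative values over 8 results, 39 kept their direction and stayed within 1.5-fold, for a count, or within 1 SD of the main value, 9 moved further and 0 reversed. Several of the 39 could hardly move: those from TPM recomputed from FPKM, and the pair count with another pseudocount or a library left out. Counts that require every library can only stay or rise when a library is left out. The tally is therefore not a measure of stability. The log2 ratio of X to autosome medians was -1.96 with all genes above 0 TPM, -1.67 with a mean of at least 5 TPM, -1.73 with all genes that have a chromosome and -1.80 as a difference of means of log2(TPM + 1), against -2.16; leaving out each library gave -2.20 to -2.08. The 100 most abundant genes held 14.2% in CPM, which is not per length, and 18.8% without mitochondrially encoded genes, against 20.04%; leaving out each library gave 19.96% to 20.3%. Genes varying beyond counting error numbered 5416 to 8595 with a library left out, against 9565, and the coefficient of variation was 0.162 to 0.319, in each case lowest without WT replicate 1. For the X ratio and the abundant genes the causes were not tested beyond what the alternatives change. The count of pairs was 27 in CPM, the only alternative that could have changed it by more than rounding. An equal pseudocount on both genes cannot change which is higher, and TPM recomputed from FPKM is proportional to TPM apart from rounding. Leaving out a library cannot change the count, since no pair was mixed. Depth limits genes under the floors of 0.356 to 0.405 CPM, and 3 libraries limit the precision of every SD.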
